A study of Mus musculus with 12 samples.

Results

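Of 77817 H3K27ac regions found on chromosomes 1 to 19 in newborn mouse hearts, 795 were called in at least 2 of 3 edKO hearts and in no WT heart. They are named edKO-only regions here. The hearts came from animals at postnatal day 0. WT is wild type (hearts 1, 3 and 4) and edKO is the cardiomyocyte-specific RXRab-/- genotype (hearts 1, 3 and 6), so fibroblasts, endothelial cells and other cells of the heart are outside the labelled deletion. The labels give neither a Cre driver nor whether a sample was 1 animal or a pool. Each heart had its own list of called regions, and regions of the 6 lists that shared at least 1 bp were joined into a union. The edKO-only regions were chosen by the calls themselves, which are the outcome of the genotype comparison, so their absence from the WT lists is a definition and was not tested. The mark was read in whole hearts, in which a change in the share of a cell type and a change of the mark within cells cannot be told apart.

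Acetylation of lysine 27 of histone H3 marks active promoters and enhancers. Retinoid X receptors (RXRs) are nuclear receptors that pair with others of the family on DNA, among them PPARs and LXRs, which sense lipids, and the receptors for retinoic acid and thyroid hormone. Such pairs activate genes when a ligand is bound, and some of them recruit corepressors to their sites without one.

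Promoter sequence was at hand for a small part of the regions. RefSeq promoter windows (GRCm38.p6, 250 bases before to 50 after a gene start) overlapped edKO-only regions in 14 cases, at 12 genes. The windows of Bdh1 and Gata3 are printed because their union regions were called in all 3 edKO hearts, and that of Fam241b because its windows hold the nuclear receptor half-site AGGTCA. The edKO 6 call alone reached the Bdh1 window (44 bases of it) and the Gata3 window (43 bases). At Bdh1 the edKO 1 and edKO 3 calls lay 628 and 703 bp from the window, and at Gata3 334 and 108 bp. Of the 14 windows, 8 were reached by the calls of 2 edKO hearts, 6 by that of 1 and none by all 3. Capitals mark the letters of the searched motifs on either strand, and the sequences run 5′ to 3′ along the gene's strand. The Bdh1 window lies at chr16:31428503-31428802 on the plus strand, the Gata3 window at chr2:9878551-9878850 on the minus strand and the Fam241b window at chr10:62110919-62111218 on the minus strand.
Bdh1: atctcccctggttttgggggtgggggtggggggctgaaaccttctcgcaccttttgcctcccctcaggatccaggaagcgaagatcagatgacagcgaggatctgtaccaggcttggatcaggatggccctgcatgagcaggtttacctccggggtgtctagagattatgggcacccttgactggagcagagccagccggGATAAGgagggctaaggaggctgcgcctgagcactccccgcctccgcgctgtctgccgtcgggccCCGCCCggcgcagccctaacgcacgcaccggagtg
Gata3: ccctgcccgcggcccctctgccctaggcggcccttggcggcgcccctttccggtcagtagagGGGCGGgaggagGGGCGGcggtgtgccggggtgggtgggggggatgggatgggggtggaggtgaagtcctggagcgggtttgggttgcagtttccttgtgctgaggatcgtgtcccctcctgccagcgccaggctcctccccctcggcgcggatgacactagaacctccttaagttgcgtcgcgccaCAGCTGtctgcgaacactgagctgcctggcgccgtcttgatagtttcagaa
Fam241b: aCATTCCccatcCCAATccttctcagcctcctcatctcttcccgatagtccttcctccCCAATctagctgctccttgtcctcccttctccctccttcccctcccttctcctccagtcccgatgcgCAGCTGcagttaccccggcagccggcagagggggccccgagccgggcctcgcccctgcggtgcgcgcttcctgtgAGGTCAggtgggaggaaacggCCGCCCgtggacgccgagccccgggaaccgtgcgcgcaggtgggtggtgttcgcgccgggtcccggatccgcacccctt

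In the Bdh1 window the marked letters are 1 GATAAG (the GATA core) and 1 GGGCGG (the SP/KLF core, read on the other strand). Only the GGGCGG lies in the 44 bases of that window reached by a call. The Gata3 window holds 1 CAGCTG (an E-box) and 2 GGGCGG, all of them outside the 43 bases reached by a call. The Fam241b window holds the AGGTCA half-site, the TEAD core GGAATG, the E-box CAGCTG and the SP/KLF core once each, and CCAAT (the NF-Y core) in 2 places. Calls reached the last 103 bases of this window in edKO 6 and the last 80 in edKO 1. The SP/KLF core lies in both stretches, the AGGTCA in that of edKO 6 only and the other marked motifs in neither. Over the 14 windows, AGGTCA was found in 2 (14.3%), both of them windows of Fam241b that overlap each other. It was in 14.7% of all 20085 promoter windows, and in 22 of the 70 windows (31.4%) that overlapped regions called in at least 2 WT and no edKO heart. AGGTCA repeated in the same direction with 1 or 4 bases between the copies, the spacings known for PPAR with RXR and for LXR or thyroid hormone receptor with RXR, was in none of the 14 and none of the 70. These repeats are rare in such windows, at 0.045% of all windows for the 1-base and 0.0% for the 4-base spacing, so their absence from so few windows says nothing about such sites. The other searched motifs were in 0 to 7 of the 14 windows: GGGCGG in 7 (47.0% of all windows), CAGCTG in 5 (15.6%), GGAATG in 4 (13.4%), CCAAT in 4 (38.1%), CACGTG in 2 (7.89%), GATAAG in 1 (6.91%), TGACGTCA in 1 (2.30%), and TGACTCA and the MEF2 pattern of CTA and TAG with 4 bases between in none (4.70% and 3.54%). The 14 windows had a median GC content of 66.3%, the 70 windows 57.7% and all windows 57.0%. With 14 windows from 12 genes these shares are descriptions of few sequences.

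The edKO-only regions were few beside the regions restricted to other groups of hearts. They made up 1.02% of the union, against 3768 regions (4.84%) called in at least 2 WT hearts and in no edKO heart. The same count was made for each of the 18 mixed choices of 3 hearts, 1 or 2 of them from each genotype. Those counts ran from 642 to 4500 with a median of 1887.5, and 2 of the 18 were below 795. They were the choices of edKO 1 and edKO 3 with WT 4 (642 regions) and with WT 1 (794 regions). A choice of hearts that mixed the genotypes therefore gave more restricted regions in 16 of 18 cases. The 3 edKO lists held 160801 regions together, and 3 of the 18 mixed choices had a lower total. Those 3 choices had 642, 794 and 879 restricted regions. Of the edKO-only regions, 57 (7.17%) were called in all 3 edKO hearts, against 833 of the WT-only regions (22.1%) and 4.49% to 20.5% over the mixed choices.

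**Figure D1:**
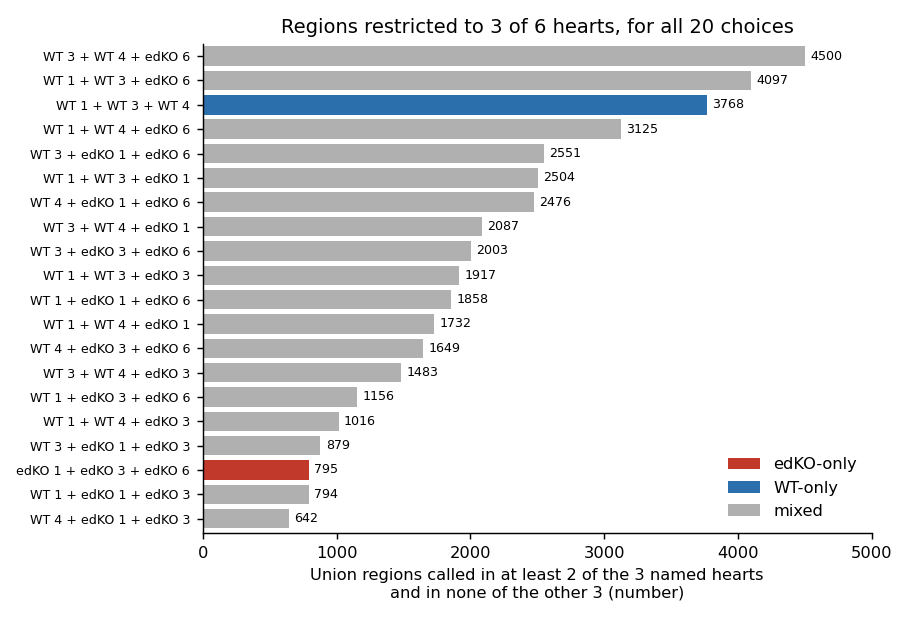
Horizontal bars give the number of union regions called in at least 2 of 3 named hearts and in none of the other 3, for all 20 choices of 3 hearts, with edKO-only in red, WT-only in blue and mixed choices in grey. The edKO-only count of 795 is the third from the bottom and the WT-only count of 3768 the third from the top.

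The lists differed in length, and the counts changed when the lists were cut to equal length. On chromosomes 1 to 19 the WT lists held 56696, 61688 and 65203 regions and the edKO lists 46967, 47302 and 66532, so the edKO 6 list was the longest of all and those of edKO 1 and edKO 3 the shortest. Among the 795 regions, 696 were called in edKO 6, 612 in edKO 1 and 339 in edKO 3. The pair of edKO 1 and edKO 6 alone accounted for 456 (57.4%), edKO 3 and edKO 6 for 183 (23.0%) and edKO 1 and edKO 3 for 99 (12.5%). Without edKO 6 the count was 156, without edKO 1 it was 240 and without edKO 3 it was 513, with both remaining edKO hearts required. Without a WT heart it rose to 1342 (WT 1), 1619 (WT 3) and 1273 (WT 4). With each list reduced to its 46967 strongest regions, the count was 1122, which was above 5 of the 18 mixed choices (784 to 2604), while the WT-only count fell to 2113. That cut drops weak WT calls too, so the 1122 can hold regions called in a WT heart as deposited. Sequencing depth per heart is unknown, and the part of list length in these counts was otherwise not tested. A region at Xist was called in WT 1 and edKO 6 (2983 and 2115 bp) and in no other heart, so hearts with and without it were present in both genotypes.

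Hearts that had no part in choosing a set of regions gave a further view of it. Regions were taken that were called in 2 edKO hearts and in neither of 2 WT hearts, and the calls were then read in the remaining edKO heart and the remaining WT heart. Over the 9 ways of doing so, with 249 to 1010 regions each, the remaining edKO heart called 31.5% of the regions on average (12.7% to 51.0%) and the remaining WT heart 46.9% (35.0% to 61.1%). The edKO heart called more of them than the WT heart in 1 of 9 ways, the one with edKO 6 and WT 4 held out (45.0% against 37.3%). Regions that had looked like gains in 2 against 2 hearts were thus found more often in a further WT heart than in a further edKO heart. The share followed the held-out edKO heart, at 12.7% to 19.8% for edKO 3, 30.4% to 33.6% for edKO 1 and 41.6% to 51.0% for edKO 6. Regions chosen the opposite way, from 2 WT hearts against 2 edKO hearts, were called in 51.7% on average by the remaining WT heart and in 31.7% by the remaining edKO heart, with the WT heart ahead in 7 of 9 ways. The 9 ways share hearts and regions, so no test is given.

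**Figure D2:**
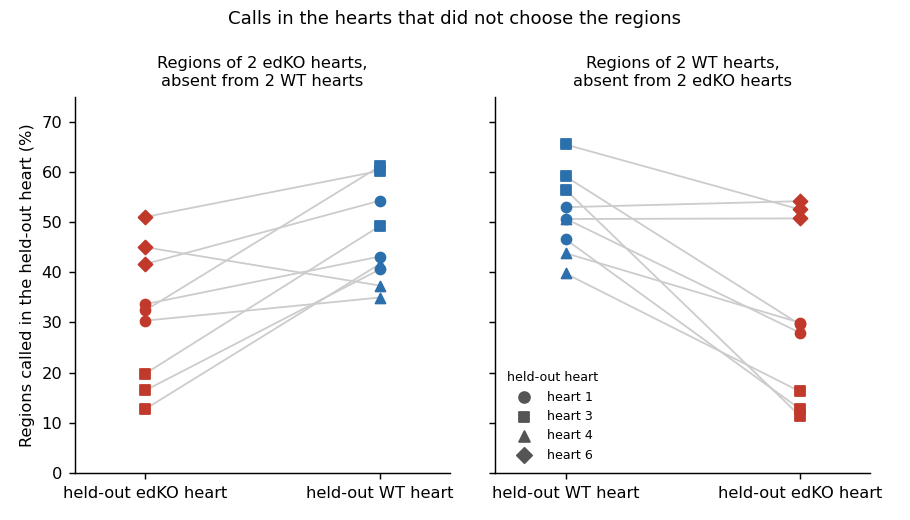
Each line joins the share of regions (%) called in a held-out heart of the genotype that chose them (left point) and in a held-out heart of the other genotype (right point), for 9 choices per panel, with WT hearts in blue, edKO hearts in red and marker shapes giving the heart number. In the left panel 8 of 9 lines rise towards the WT heart, and in the right panel the red points of edKO 1 and edKO 3 lie below all blue points.

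With lists of equal length the shares came closer together. The held-out edKO heart then called 40.1% and the held-out WT heart 45.4% on average, and the edKO heart was ahead in 3 of 9 ways. For pairs of WT hearts the averages were 47.7% and 34.0%, with the WT heart ahead in 8 of 9 ways.

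The edKO-only regions were weakly called within their own lists. Strength is given as the percentile of a region's −log10 q in its list (100 is the strongest), averaged over the edKO hearts that called it. The lowest was 0.82, the median 19.57 and the highest 62.0, and 648 of the 795 (81.5%) were under the 30th percentile. Only 6 lay above 50. The median −log10 q was 4.13 in edKO 1, 3.60 in edKO 3 and 3.58 in edKO 6, where the whole lists had medians of 10.2, 9.39 and 6.57. WT-only regions had a median percentile of 24.9 in the WT lists and a highest value of 84.6, and the mixed choices had medians of 19.2 to 25.4 and highest values of 55.3 to 74.9. The edKO-only median was below those of 17 of 18 mixed choices. Asking for a −log10 q of at least 5 in at least 2 edKO hearts, with WT lists as deposited, left 55 regions.

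**Figure D3:**
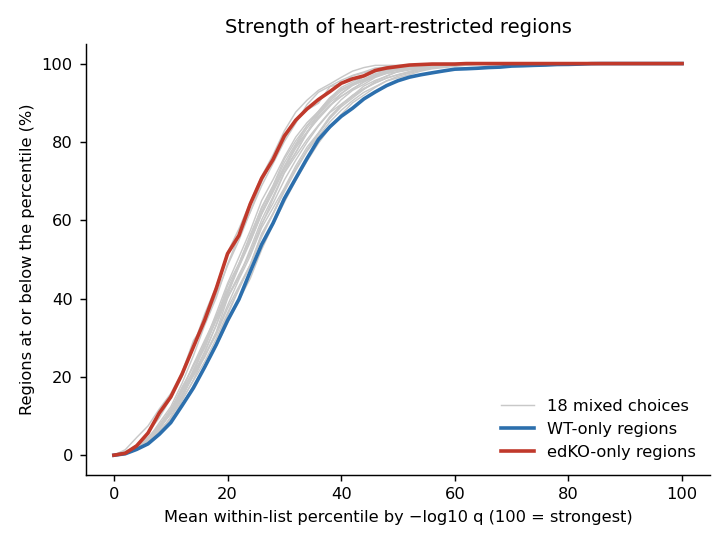
Cumulative share of regions (%) by mean within-list percentile of −log10 q (100 = strongest) for edKO-only regions (red), WT-only regions (blue) and each of 18 mixed choices (grey). The red curve runs along the weak edge of the grey ones, with a median of 19.57, and the blue curve near the strong edge, with a median of 24.9.

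The regions were narrow and lay close to other marked chromatin, as did WT-only regions and those of the mixed choices. Their union width ran from 257 to 1632 bp with a median of 523 bp, against 536 bp for WT-only regions, 456 to 577 bp over the mixed choices, 732 bp over all regions and 1993 bp for the 27782 regions called in all 6 hearts. The nearest other union region lay a median of 496 bp away (571 bp for WT-only regions, 395 to 625 bp over mixed choices). For 471 of the 795 (59.2%) it was within 1 kb, against 56.6% of WT-only regions and 54.8% to 62.2% over the mixed choices. For 133 of the 795 that neighbour within 1 kb was a region called in all 6 hearts, as it was for 522 of the 3768 WT-only regions. A region of at least 1 WT list lay within 1 kb of 390 edKO-only regions (49.1%), and 405 had none. In the other direction, 1407 of the WT-only regions (37.3%) had a region of an edKO list within 1 kb. Where exactly 2 edKO hearts called a region, their summits were a median of 120.5 bp apart, beside 109 bp for WT-only regions and 98 to 127 bp for mixed choices.

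Most of the regions lay inside genes, as did most of all union regions. Inside protein-coding genes lay 474 (59.6%), between genes but within 100 kb of one 215 (27.0%), farther away 68 (8.55%), and within 1 kb of a gene start 38 (4.78%). WT-only regions had 58.1% inside genes, 28.7% between genes, 8.97% farther away and 4.30% at gene starts. The mixed choices had 1.01% to 8.58% at gene starts. Over all union regions 51.4% were inside genes, 24.6% between genes, 6.78% farther away and 17.2% at gene starts. Of regions called in all 6 hearts, 38.8% were at gene starts. Each of the 4 edKO-only shares lay inside the range of the mixed choices. The gene start table lacks some genes, for which both gene ends were used.

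**Figure D4:**
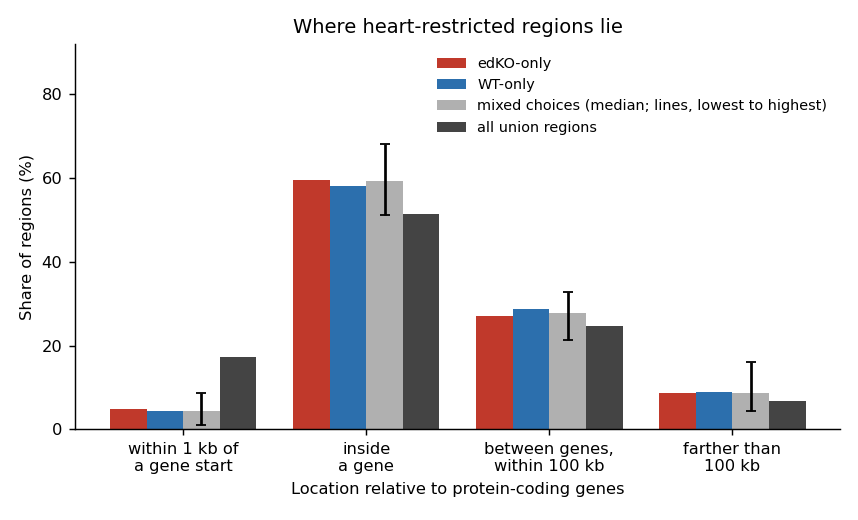
Bars give the share of regions (%) in 4 classes of location relative to protein-coding genes for edKO-only regions (red), WT-only regions (blue), mixed choices (grey, median with lines from lowest to highest of 18) and all union regions (black). The red bar at gene starts (4.78%) is within the grey range and below the black bar (17.2%).

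The best ranked edKO-only region, which was called in all 3 edKO hearts, lay inside Pde10a, which encodes a phosphodiesterase that breaks down cAMP and cGMP (chromosome 17, 8629585 to 8630413, mm10). It was called over 714, 451 and 696 bp in edKO 1, 3 and 6, with −log10 q values of 16.6, 13.4 and 11.8, and in no WT heart. Its summits in the 3 hearts lay within 65 bp of each other, and the nearest other union region was 73375 bp away. Pde10a with 10 kb of flank on either side was marked in both genotypes: called regions covered 6259, 7110 and 2904 bp in WT 1, 3 and 4, and 7082, 3051 and 7657 bp in edKO 1, 3 and 6. Those totals overlap between the genotypes.

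Next among the 57 regions called in all 3 edKO hearts was one 64581 bp from Trim24, a cofactor of nuclear receptors that include the retinoic acid receptors (chromosome 6, 37805733 to 37806230). Its −log10 q was 13.8, 9.39 and 8.02 in edKO 1, 3 and 6. The nearest other region, called in all 6 hearts, was 63870 bp away. The third of those 57 lay 14577 bp from Nf1, the neurofibromin gene, a brake on Ras (chromosome 11, 79324298 to 79325013), at 8.57, 7.15 and 10.9. A second, weaker edKO-only region lay inside Nf1, called in edKO 1 and edKO 6 at 2.86 and 2.66.

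Among the 57 regions called in all 3 edKO hearts, the one at a start of Bdh1 had the highest −log10 q in a single heart. Bdh1 encodes the mitochondrial dehydrogenase that interconverts 3-hydroxybutyrate and acetoacetate. The region (chromosome 16, 31428759 to 31430117) began 6 bases after a RefSeq start inside the gene body, the start whose window is printed above, through its edKO 6 call. The edKO 1 and edKO 3 calls began 677 and 752 bp after that start. The region covered 430, 249 and 1359 bp in edKO 1, 3 and 6, with −log10 q of 10.9, 3.26 and 23.2. Its breadth thus came from edKO 6 alone. Other regions nearest to Bdh1 had other callers: one at 31458347 to 31458817, inside the gene, was called over 440, 453 and 426 bp in the WT hearts, over 397 bp in edKO 6 and not in edKO 1 or edKO 3. Another at 31494166 to 31494782, 35265 bp from the gene, was called in WT 1 and WT 3 and in no edKO heart. Bdh1 thus had 1 edKO-only and 1 WT-only region.

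**Figure D5:**
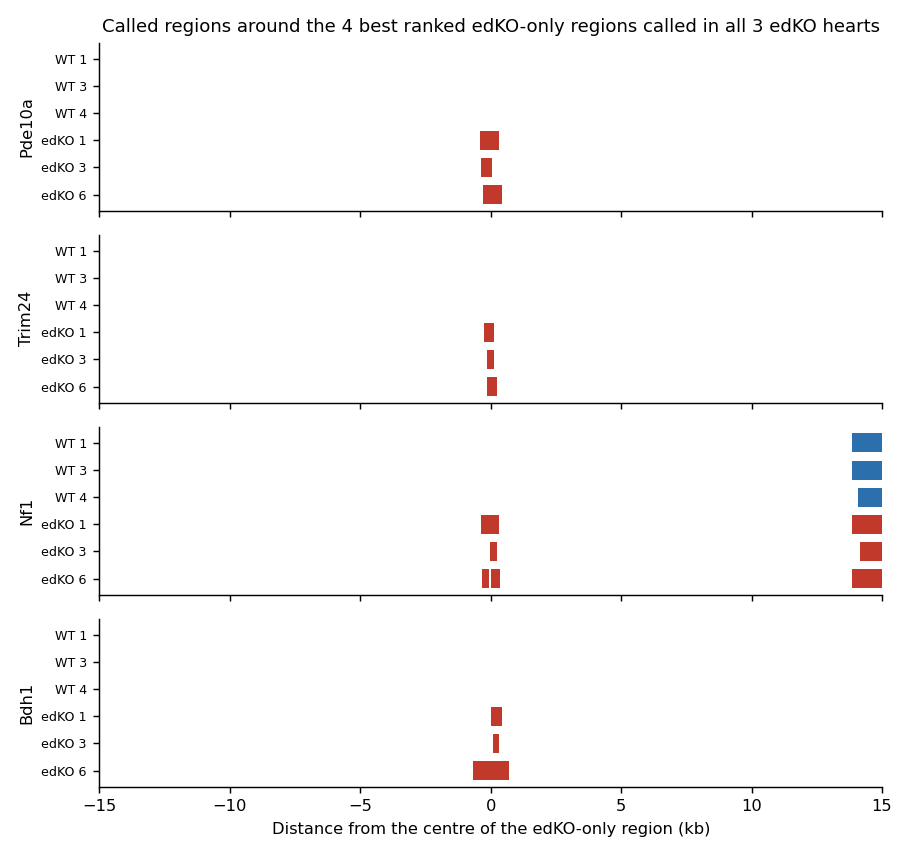
Boxes are called regions in each heart (WT in blue, edKO in red) within 15 kb on each side of the centre of the 4 best ranked edKO-only regions called in all 3 edKO hearts, labelled by nearest gene, and the horizontal axis gives the distance from that centre in kb. At Pde10a, Trim24 and Bdh1 no other region was called in any heart in this window, and at Nf1 all 6 hearts share a region at the right edge.

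Ttc39b, a gene whose product promotes the breakdown of LXR in liver and gut, had the fifth best ranked of the 57 regions called in all 3 edKO hearts inside it (chromosome 4, 83303460 to 83304005), at −log10 q of 9.26, 7.88 and 5.54 in edKO 1, 3 and 6. A second edKO-only region in Ttc39b, in edKO 3 and edKO 6, was weaker at 2.04 and 4.04. The next 3 lay 62949 bp from Tlk1, a kinase of chromatin assembly (7.0, 5.77 and 7.17), 135408 bp from Eea1, an early endosome gene (8.57, 4.19 and 4.87), and 9825 bp from Slc6a17, an amino acid transporter gene (10.2, 3.85 and 4.77). The region near Tlk1 lay 86 bp from one called in 4 hearts, so it adjoined chromatin that WT hearts had marked too. Summits at the Eea1 region were up to 532 bp apart, which is wider than at the others of the 8 (7 to 125 bp).

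The strongest regions called in exactly 2 edKO hearts had percentiles of 48.9 to 52.9. One lay 2038 bp from Cyp2d22, a cytochrome P450 gene (edKO 1 and edKO 6, −log10 q 10.2 and 8.02). Another lay inside Lclat1, an acyltransferase gene of cardiolipin remodelling (edKO 1 and edKO 6, 9.67 and 8.02), 68 bp from a region called in 3 hearts. The third lay inside Ldlrad4, a gene of TGF-beta signalling (edKO 3 and edKO 6, 7.15 and 9.80), 40 bp from a region called in all 6 hearts. The fourth lay 11407 bp from Slc35f2 and 20311 bp from a start of Sln, the gene of sarcolipin, a small inhibitor of the sarcoplasmic calcium pump (edKO 3 and edKO 6, 7.88 and 7.17). The 4 widest regions were that of Bdh1 and those inside Tnrc6c (1632 bp), a gene of microRNA silencing, Fli1 (1540 bp), an endothelial and blood transcription factor, and Clip1 (1340 bp), a microtubule gene. The mean percentiles of these 4 were 47.2 (Bdh1), 34.1 (Clip1), 31.2 (Tnrc6c) and 4.23 (Fli1). The Fli1 region had −log10 q values of 2.86 in edKO 1 and 1.67 in edKO 3, and the summits of the Tnrc6c region were 1346 bp apart.

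Just outside the rule were 1849 regions called in at least 2 edKO hearts and in exactly 1 WT heart, 824 of them in WT 3, 547 in WT 1 and 478 in WT 4. Their median percentile in the edKO lists was 24.1, above the 19.57 of the members, and 283 were called in all 3 edKO hearts, against 57 members. The best ranked of them lay inside Dtd1, with −log10 q of 24.5, 15.3 and 17.7 in edKO 1, 3 and 6 and 44.9 in WT 1, near Sox8 (15.9 in edKO 3, 10.6 in edKO 6 and 7.0 in WT 3) and inside Kazn (12.7 in edKO 1, 12.6 in edKO 6 and 7.95 in WT 4). A single WT call kept each of them out. At Dtd1 the −log10 q of that call was above those of the edKO calls. Depth per heart is unknown, so values from different lists do not rank the calls by strength. Just inside the rule, the weakest edKO-only region called in all 3 hearts was inside Ank2, at 1.95, 1.67 and 1.46, where the edKO lists begin at 1.31 to 1.33.

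A protein-coding gene lay within 100 kb of 727 of the 795 regions, and 662 genes were the nearest to at least 1 of them. That is 3.2% of the 20665 protein-coding genes on these chromosomes, beside 2379 genes (11.5%) nearest to a WT-only region. Of the 662 genes, 603 had 1 region, 53 had 2 and 6 had 3. WT-only regions were also nearest to 273 of them, which is 41.2% of the genes with edKO-only regions and 11.5% of the genes with WT-only regions. These 273 genes had regions of both kinds.

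The 6 genes with 3 edKO-only regions were Rapgef5, an exchange factor gene for Rap GTPases, Tenm4, a teneurin gene, Filip1l, Mecom, a transcription factor of blood stem cells and other tissues, Kitl, the gene of the ligand of the Kit receptor, and Acyp2, an acylphosphatase gene. None of their 18 regions was called in all 3 edKO hearts, and their percentiles ran from 4.36 to 41.1. The best ranked was 35877 bp from Rapgef5 (edKO 1 and edKO 6, −log10 q 6.24 and 6.34). Of all union regions nearest to these genes, the 3 were a small part at Filip1l (48 regions), Mecom (44), Tenm4 (40) and Rapgef5 (36) and a larger part at Kitl (13) and Acyp2 (9). WT-only regions numbered 3 at Filip1l, 2 at Mecom, 1 each at Rapgef5, Tenm4 and Kitl and 0 at Acyp2.

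At Acyp2 the covered length of the locus (gene and 10 kb flanks) was 1857, 3322 and 3586 bp in WT 1, 3 and 4, against 4909, 2958 and 4503 bp in edKO 1, 3 and 6, so edKO 3 lay among the WT hearts. At Rapgef5 it was 18437, 18979 and 13884 bp in the WT hearts, beside 21967, 12664 and 15176 bp in the edKO hearts, and at Kitl 3382, 4423 and 3537 bp against 4679, 3835 and 3394 bp. The genotypes overlapped at all 3. The edKO 1 heart had the highest value in each, and edKO 1 also had the widest called regions of the 6 lists, with a median of 1011 bp against 532 to 768 bp.

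Listed genes are read against the shares over all protein-coding genes, 3.2% with an edKO-only and 11.5% with a WT-only region, and over all union regions, 1.02% and 4.84%. Of 24 genes of fatty acid oxidation and its regulators, 2 (8.33%) had edKO-only regions and 9 had WT-only regions, and 3 of the 171 union regions nearest to them (1.75%) were edKO-only. With so few genes these counts do not set the list apart. The 2 were Ppargc1a, the coactivator PGC-1alpha, with a region inside it in edKO 1 and edKO 6 (−log10 q 14.7 and 2.66) and a weaker one (3.02 and 2.95), and Ppara, the fatty acid receptor and RXR partner, with a region 58269 bp away (3.02 and 2.02). Both genes also had WT-only regions. Ppara was the one gene with an edKO-only region among 20 RXR genes, partner receptors and corepressors, of which 10 had WT-only regions. None of 21 glycolysis genes had an edKO-only region, and 6 had a WT-only one. At the share over all genes, fewer than 1 gene with an edKO-only region would fall in a list of 20 or 21, so neither count is a result about these genes. Genes of these 3 lists can have many regions each, so the WT-only counts are given by region too. WT-only were 4.15% of the 241 union regions nearest to the RXR and partner genes. For glycolysis genes it was 5.83% of 120 and for fatty acid oxidation genes 6.43% of 171, against 4.84% of the union.

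In the lists of cardiomyocyte genes, as over the whole union, WT-only regions outnumbered edKO-only ones. Among 22 cardiac transcription factor genes, 3 (13.6%, against 3.2% of all genes) had an edKO-only region (Myocd, Gata6 and Mef2c) and 11 a WT-only one. At Gata6, a zinc finger factor of heart development, the region lay 5732 bp from the gene, in edKO 1 and edKO 6 (4.81 and 1.88). Among 24 sarcomere and calcium handling genes, 4 (16.7%) had an edKO-only region and 11 a WT-only one. These 4 were Mybpc3, the cardiac myosin-binding protein C gene (edKO 3 and edKO 6, 3.85 and 5.54), the ryanodine receptor gene Ryr2 (edKO 1 and edKO 6, 4.81 and 3.01), the calcium channel gene Cacna1c (edKO 1 and edKO 6, 3.48 and 3.62) and the sodium-calcium exchanger gene Slc8a1. By region, 0.867% of the regions nearest to the cardiac transcription factors and 0.941% of those nearest to the sarcomere and calcium handling genes were edKO-only, near the 1.02% of the union, and 6.36% and 6.82% were WT-only. Of 18 fetal and stress genes 1 had an edKO-only region (Atf3, 52386 bp away), and of 25 cell cycle genes 1 (Cdk6, 4.13 in edKO 1 and 4.77 in edKO 6). These shares of 5.56% and 4.0% lie near the 3.2% over all genes.

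Some markers of non-myocyte cells had edKO-only regions. Of 21 endothelial markers, 5 (23.8%, against 3.2% of all genes) had an edKO-only region (Eng, Flt1, Tie1, Kdr and Fli1) and 9 a WT-only one. Counted by region, 7 of the 283 union regions nearest to endothelial markers were edKO-only (2.47%, against 1.02% of the union) and 15 WT-only (5.30%, against 4.84%). The strongest lay inside Eng, the endoglin gene, in edKO 1 and edKO 6 (5.51 and 9.07), and the one inside Flt1, a VEGF receptor gene, was called in all 3 edKO hearts (7.78, 1.53 and 6.34). Of 20 fibroblast markers, 3 had an edKO-only region (Thy1, Col3a1 and Fbln2) and 3 a WT-only one, which came to 3 of 203 regions (1.48%) each way. Pdgfrb, the pericyte receptor gene, had 2 edKO-only regions and was the one gene of 12 smooth muscle and pericyte markers with any. Of the 81 regions nearest to these 12 genes, 2 (2.47%) were edKO-only and 1 (1.235%) WT-only. The 2 at Pdgfrb were weak, at percentiles of 13.2 and 11.8.

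Locus totals of Eng and Flt1 did not separate the genotypes. Called regions covered 16072, 20932 and 15797 bp of the Eng locus in WT 1, 3 and 4. In edKO 1, 3 and 6 they covered 19092, 13221 and 22136 bp. For Flt1 the WT hearts had 13952, 12818 and 6382 bp and the edKO hearts 14838, 7916 and 10644 bp. Both edKO ranges contained WT hearts. Of 11 epicardial markers 1 had an edKO-only region (Wt1), and of 39 developmental signalling genes 4 (Notch2, Fgfr2, Notch1 and Fgf9). By region these lists had 1.72% and 1.68% edKO-only, against 1.02% of the union. None of 15 leukocyte, 14 neural and Schwann cell, 9 erythroid and 18 control genes had one. At 3.2% of all genes, lists of this size would hold 0 or few such genes, so the zeros say nothing about these cell types. The lists differ in how many regions they have, and all these counts are descriptions.

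As union regions, edKO-only regions overlapped the promoter windows of Bdh1, Gata3, Epb41l1, Camk2b, Fam241b, Ptpru, Smim43, Tiam1, Cab39l, Atp2a3, Col18a1 and Esr2. After Bdh1, the highest percentiles were those of Epb41l1, a membrane skeleton gene (edKO 3 and edKO 6, −log10 q 9.39 and 4.04, 39.5), Camk2b, a calmodulin-dependent kinase gene (edKO 1 and edKO 6, 3.59 and 9.80, 38.1), and Fam241b (edKO 1 and edKO 6, 4.81 and 6.57, 37.1). The Gata3 region was called in all 3 edKO hearts but weakly, at 2.27, 3.26 and 3.58. Apart from Bdh1 and Gata3, each of these 12 rested on 2 hearts, and edKO 6 was one of them in every case.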

How the data were processed

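H3K27ac ChIP-seq of 6 hearts was analysed from the authors' lists of called regions, 1 per heart. Per the submitters' processing notes the tools were cutadapt, BWA, SAMtools and MACS2 on mm10 (GRCm38), with no versions. Caller settings, and whether inputs served as controls, were not given in the sources used here. Input libraries (6) were not analysed here. The deposited lists give start, end and summit, the fold enrichment as a ratio to background, and −log10 q of each summit. The fold and −log10 q are the authors' own values and were used within a list. Entries with the same start and end were taken as 1 region, with its best −log10 q.

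The lists were joined at 1 bp overlap on chromosomes 1 to 19, and each union region was marked by the hearts that called it. Genes came from RefSeq (GRCm38.p6): 21631 protein-coding genes, 17274 of them with gene starts in the promoter table. Of 316 listed genes, 315 were matched. Motifs were exact matches on both strands. The union and gene assignment were checked on simulated lists and returned the regions placed there. No result is a test, because the genotype calls chose the regions. The design's gene end class was computed as a gene start class where strand was known. Named regions are the 8 best ranked in all 3 edKO hearts, the 4 best in exactly 2, the 4 widest, genes with 3 or more regions, up to 3 genes per list, and the 3 best ranked just outside. The 2 weaker regions named at Nf1 and Ttc39b, the Bdh1 neighbours, Slc8a1, Kdr, Fli1 and Fgf9 among list members, Ank2, the genes with promoter windows and the regions named under other observations were named after their values were seen. Regions and gene lists were chosen with earlier results of these data known. Python 3.11.15, numpy 2.4.6, pandas 2.3.3, scipy 1.17.1 (Wilson intervals) and matplotlib 3.10.9 were used.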

Additional observations from a re-analysis of the deposited data

How the results depend on the processing

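The count of edKO-only regions moved most with the calls required. It was 405 with no WT region within 1 kb, 499 with stricter lists (−log10 q of at least 5 in all hearts), 55 with that bar on edKO calls alone and 57 with all 3 edKO hearts required. It stayed within 1.5 times of 795 with gaps up to 500 bp joined (540), equal list length (1122), a width floor of 300 bp (782) and chromosome X added (810). The stricter lists and those of equal length also lose weak WT calls. Their counts can thus hold regions that a WT heart called in the lists as deposited. Leaving out 1 heart at a time gave 156 to 1619.

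Location shares moved beyond their 95% Wilson interval under the settings named below. The ranges without 1 heart are given whole and hold values inside the interval too, with 2 or 3 of 6 moved per class. That interval counts regions as independent, although they come from 6 hearts. At gene starts the share was 7.27% with stricter edKO calls, 8.77% with all 3 hearts required, 8.68% with all annotated genes and 10.4% within 2.5 kb, and 3.21% to 7.08% without 1 heart. Inside genes it was 55.3% with no WT region within 1 kb, 47.4% with all 3 hearts, 65.7% with all annotated genes and 55.2% with 2.5 kb, and 52.5% to 61.9% without 1 heart. Between genes it was 34.5% with stricter edKO calls and 31.6% with all 3 hearts, and 25.8% to 30.6% without 1 heart. Far from genes it was 10.9% with no WT region within 1 kb, 1.82% with stricter edKO calls, 12.3% with all 3 hearts and 0.755% with all annotated genes, and 6.68% to 13.5% without 1 heart.

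The median width was 620.5 bp with joined gaps, 704 bp with stricter lists, 612 bp with stricter edKO calls, 605 bp at equal length and 670 bp with all 3 hearts, and 469.5 to 600 bp without 1 heart. The median percentile was 43.1 with stricter lists, 42.0 with stricter edKO calls, 28.5 at equal length and 23.5 with all 3 hearts, and 17.7 to 22.5 without 1 heart. The stricter lists and the stricter edKO calls drop weak regions by construction. Equal length drops no region from edKO 1 (46967 regions), few from edKO 3 (47302) and more from edKO 6 (66532), and it drops weak WT calls too. For the other changes the cause was not tested. The held-out share stayed between 29.3% and 40.1% over 6 alternatives, and could not be computed with a heart left out, with all 3 edKO hearts required or with no WT region within 1 kb. The edKO-only count was above 1 to 5 of the 18 mixed choices under the settings in which all choices were recounted.

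Depth is unknown for each heart, which leaves the counting error without an interval. Absence from a list means not called, and does not show that the mark was absent. No paired analysis was made, because no result comes from a test and the labels give no pairing of hearts between the genotypes. Hearts 4 and 6 share no number, and a shared number is not labelled as a pair.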

Other observations

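The share of union regions that were edKO-only ran from 0.70% on chromosome 1 (37 of 5289) to 1.44% on chromosome 18 (46 of 3186). Within 10 kb of a microRNA hairpin lay 8 edKO-only regions (1.01%), against 37 WT-only regions (0.982%) and 1270 of all union regions (1.63%). The closest was 493 bp from Mir1931 (chromosome 10, 93163396 to 93164698, edKO 1 and edKO 6), and the one called in all 3 edKO hearts was 2830 bp from Mir331 (chromosome 10, 93966693 to 93967238), inside Vezt. Of 3 edKO-only regions whose nearest gene is Gata6, 2 lay beyond 100 kb of it, at 165944 and 186637 bp, and the farther one was the strongest of the 3, with −log10 q of 7.78 in edKO 1 and 4.77 in edKO 6. A region 209641 bp from Sox4, a transcription factor gene of heart development, was called in all 3 edKO hearts at 5.17, 4.46 and 6.34.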
